A study of Arabidopsis thaliana with 4 samples.

Results

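The xyloglucan endotransglucosylase/hydrolases (XTHs) of Arabidopsis thaliana were followed in whole seedlings 0.5 h after transfer to medium with glutamine and just before it. The members, XTH1 to XTH33, were taken by gene name and locus, and all 33 were found among the 33602 genes of the deposited table. Seedlings of the Columbia accession were raised for 14 days in nitrogen-free liquid culture at 22 °C, in days of 16 h light and 8 h dark. The 0.5 h group (2 libraries) was harvested 0.5 h after a move to the same medium holding 2.5 mM glutamine, and the 0 h group (2 libraries) before any move. Neither seedlings moved without glutamine nor seedlings left unmoved until the later time are among these samples, so glutamine, transfer and time cannot be told apart. The labels do not say that the libraries of a group came from separate cultures, so p-values measure only the spread between these libraries. In RNA of whole seedlings, fewer cells of a type and less RNA per cell cannot be told apart either.

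XTHs act on xyloglucan, the hemicellulose that coats and links cellulose microfibrils in the primary wall of growing plant cells. They cut a xyloglucan chain and join the new end to another chain, which lets the wall loosen or incorporate new material, and some members instead hydrolyse the chain. The family is divided by sequence into groups I, II and III, and members differ in the organs and stimuli to which they respond. XTH22 is better known as TCH4, one of the touch genes, whose transcripts accumulate within minutes when a plant is handled.

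Reads recovered from the table numbered 26075046 and 20429739 in the 0.5 h libraries, and 26069135 and 27203588 in the 0 h libraries. Levels are given in RPKM, reads per kilobase of gene, scaled to the depth of the library, and the deposited values include 0.5 read added to every gene. The 0.5 h library 2 was the shallowest and held the highest share of chloroplast reads, 0.379% of its reads, against 0.0569 to 0.0974% in the other libraries. The 2 libraries of a group were further apart than counting error allows (mean chi-square over genes 15.3 for the 0.5 h pair, 16.5 for the 0 h pair). Of 33 members, 28 had no multi-mapped reads, and the deposited share of such reads was above 0.05 for XTH21 (1.0) and XTH26 (0.5) only. Shoot tissue was represented by highly expressed markers (RBCS1A, the Rubisco small subunit, had 7605 and 8092 RPKM at 0.5 h, against 7681 and 7963 at 0 h). Root tissue was represented by PYK10, a root β-glucosidase, with 165 and 166 RPKM at 0.5 h, against 158 and 273 at 0 h. For both markers the groups overlapped. For 4 of the 6 shoot markers and 1 of the 8 root and root hair markers (TIP2-3) they did not, with lower values at 0.5 h. Groups did not overlap, in either direction, for 59.7% of all genes averaging 1 RPKM or more.

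Glutamine transfer was followed within 0.5 h by higher transcript levels of 8 XTH genes and a lower level of 1. XTH4, XTH6, XTH15, XTH16, XTH18, XTH22, XTH23 and XTH33 rose, by 1.73 to 3.51-fold in the ratio of group means, and XTH25 fell to 0.655 of its level at 0 h. Differences were tested with limma on log2(RPKM + 1), with Benjamini-Hochberg adjustment over the 18039 genes averaging 1 RPKM or more and a threshold of 0.05. Among all tested genes, 6.71% were called higher and 5.11% lower. Of the 33 members, 24 reached that mean and 9 did not. A mean over 4 libraries can be reached through 1 group alone, but each of the 9 called members had 7.07 RPKM or more in every library. The RPKM values of the groups did not overlap for 12 of 24 tested members, and for 59.7% of all tested genes, so lack of overlap alone did not set the family apart. The median fitted log2 change was 0.37 over the 24 members and -0.03 over all tested genes. It differed with level, at 0.78 over the 14 members of 10 RPKM or more and 0.01 over the 10 tested members below that. Without 0 h library 1 there were 5 members called higher, none called lower and a median of 0.06, and without 0 h library 2 the median was 0.75. With no minimum on the mean RPKM, 0 of 33 members passed in limma (8 were higher and 2 lower at an unadjusted p under 0.05), as did 2 of all genes, whereas limma-voom on recovered reads with the minimum called 8 members higher.

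**Figure D1:**
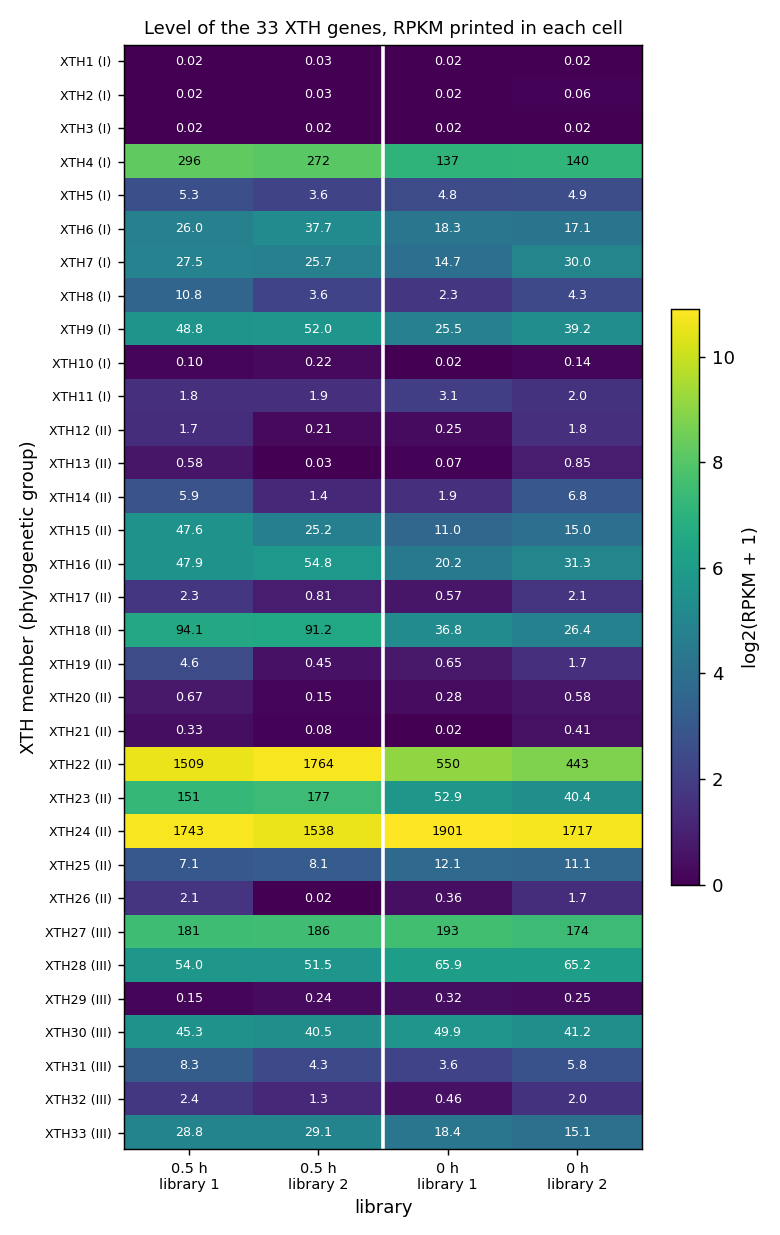
Level of each XTH gene in each library. Rows are the 33 members with their phylogenetic group, columns are the 2 libraries at 0.5 h and the 2 at 0 h, colour is log2(RPKM + 1) and the RPKM value stands in each cell; XTH24 and XTH22 are far above the rest, at 1509 to 1764 RPKM at 0.5 h against 443 to 1901 at 0 h, and XTH1 and XTH3 have no read in any library (their values are the 0.5 read added to each gene).

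Levels within the family ranged from no reads to 1901 RPKM. XTH24 (MERI5) and XTH22 were the 2 most abundant members. XTH24 made up 40.0 and 35.2% of the family's summed RPKM at 0.5 h, against 60.8 and 60.4% at 0 h. XTH22 made up 34.7 and 40.4% at 0.5 h, against 17.6 and 15.6% at 0 h. The share of XTH24 was thus lower, and that of XTH22 higher, in both 0.5 h libraries than in either 0 h library. The summed level of all members was 4355 and 4371 RPKM at 0.5 h, against 3125 and 2842 RPKM at 0 h (4363 ± 11.4 and 2983 ± 200, SD, n = 2 each), a log2 ratio of 0.55. The groups did not overlap, and an exact permutation test (two-sided) gave p = 0.333, the smallest that 2 libraries against 2 allow. Without XTH24 and XTH22 the sum was 1103 and 1069 RPKM at 0.5 h, against 674 and 682 RPKM at 0 h. At the other end, XTH1 and XTH3 had 0 reads in every library, which allows up to 0.165 RPKM for XTH1 and 0.133 RPKM for XTH3 (3 reads in the shallowest library, counting error only). XTH2 had 1 read in all.

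XTH22 (AT5G57560) had 1509 and 1764 RPKM at 0.5 h, against 550 and 443 RPKM at 0 h. Its log2 change was 1.72 ± 0.19 (SE, n = 2 each; limma adjusted p = 0.00539). XTH23 (AT4G25810, XTR6), the member closest to it in coding sequence (80.9% identity), had 151 and 177 RPKM at 0.5 h, against 52.9 and 40.4 RPKM at 0 h. For both genes each 0.5 h library stood well above each 0 h library. The log2 change of XTH23 was 1.80 ± 0.18 (limma adjusted p = 0.00470), within 1 SE of that of XTH22. XTH22 exceeded XTH23 by 3.31 and 3.31 on the log2(RPKM + 1) scale at 0.5 h, against 3.35 and 3.42 at 0 h, so the ratio of the pair stayed within a narrow range while both levels rose. The change of that difference, -0.07, had an exact permutation p = 0.333, the smallest possible here.

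The 250 bases upstream of these genes are shown because both transcripts moved together from levels far apart. They were read from the TAIR10.1 genome before the gene start of the RefSeq annotation. The annotated exons are longer than the deposited gene length for 32 of 33 members, so that start can lie upstream of the one used for the table. XTH22 lies on the minus strand, with this window at chr5:23308681-23308930, and XTH23 on the plus strand, with its window at chr4:13128144-13128393. Capitals mark a CGTGTG match.
XTH22: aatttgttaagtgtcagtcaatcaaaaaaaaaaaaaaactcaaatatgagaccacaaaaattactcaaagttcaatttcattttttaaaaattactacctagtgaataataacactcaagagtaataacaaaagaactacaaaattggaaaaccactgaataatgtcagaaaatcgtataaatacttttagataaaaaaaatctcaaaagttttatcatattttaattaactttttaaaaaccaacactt
XTH23: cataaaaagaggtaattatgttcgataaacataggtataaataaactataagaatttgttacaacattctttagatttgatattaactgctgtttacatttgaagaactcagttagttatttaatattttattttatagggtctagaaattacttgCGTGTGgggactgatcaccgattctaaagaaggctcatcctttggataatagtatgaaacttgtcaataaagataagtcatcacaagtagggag
Windows of all members were searched on both strands for CGCGTT (the rapid stress response element), CACGTG (the G-box), CGTGTG and CGTGCG. Matches to CGTGTG were found in XTH2, XTH8, XTH23 and XTH25, in 4 of 33 windows against 5.37% of the windows of 26711 genes. CGCGTT was found in XTH13, XTH18 and XTH20, in 3 of 33 windows against 2.60% of all. CACGTG and CGTGCG had no match in any member's window, against 6.58 and 1.58% of all windows. The XTH22 window held none of the 4. In 500 bases before the start codon, a window added after the data were seen, CGTGTG was found in 6 members (9.99% of all genes), CGCGTT in the same 3 members (5.51%), CACGTG in XTH7 (9.41%) and CGTGCG in none (2.85%). Members with and without a match were found both among those that rose and among those that did not.

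XTH18 (AT4G30280) had 94.1 and 91.2 RPKM at 0.5 h, against 36.8 and 26.4 RPKM at 0 h, with no overlap. Its log2 change was 1.54 ± 0.18 (limma adjusted p = 0.00618). XTH18 belongs with XTH17, XTH19 and XTH20 to a cluster of closely related genes known for expression in roots. XTH17, whose coding sequence is 92.2% identical, had 2.26 and 0.808 RPKM at 0.5 h, against 0.574 and 2.13 RPKM at 0 h. XTH19, 89.2% identical to XTH18, had 4.59 and 0.455 RPKM at 0.5 h, against 0.652 and 1.73 RPKM at 0 h. Both overlapped between groups and did not pass (limma adjusted p = 0.856 and 0.674), and both were at a small fraction of the level of XTH18. XTH20 was lower still, with 0.673 and 0.151 RPKM at 0.5 h, against 0.277 and 0.581 RPKM at 0 h, and was not tested. XTH18 exceeded XTH17 by 4.87 and 5.67 on the log2(RPKM + 1) scale at 0.5 h, against 4.59 and 3.13 at 0 h. Those differences did not overlap (exact permutation p = 0.333, the smallest possible), whereas the differences between XTH18 and XTH19 did, at 4.09 and 5.99 at 0.5 h, against 4.52 and 3.33 at 0 h. Few reads of these genes mapped to several places (shares of 0.0127 for XTH18, 0.00930 for XTH17 and 0.0156 for XTH19).

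Upstream of XTH18 and XTH17 the 2 sequences are shown because they are near copies next to the start and the genes differ in level and in change. The last 120 bases before the RefSeq start (TAIR10.1) lie at chr4:14827212-14827331 on the minus strand for XTH18 and at chr1:24256934-24257053 on the plus strand for XTH17. Capitals mark the CGCGTT match of XTH18, which is on the opposite strand, and the bases aligned with it in XTH17.
XTH18: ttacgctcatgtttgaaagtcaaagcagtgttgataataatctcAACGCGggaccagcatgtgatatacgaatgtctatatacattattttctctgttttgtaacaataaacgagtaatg
XTH17: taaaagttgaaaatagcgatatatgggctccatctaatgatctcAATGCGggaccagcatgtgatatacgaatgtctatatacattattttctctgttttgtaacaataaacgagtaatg
The final 73 bases are identical. The nearest difference to the start is C177T, with positions counted from 1 at the 5′ end of the 250-base window, the XTH18 base first and the XTH17 base last. That difference falls within the motif match, so the XTH17 window has no CGCGTT. Another 7 identical bases follow on its far side up to A169G. XTH20, which also has a CGCGTT match, was at most 0.673 RPKM in any library, and whether the motif bears on the level or the change was not tested.

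XTH4 (AT2G06850, EXGT-A1), a group I member, had 296 and 272 RPKM at 0.5 h, against 137 and 140 RPKM at 0 h. Replicates lay close together and the groups far apart, with a log2 change of 1.03 ± 0.14 (limma adjusted p = 0.00933). XTH6 (AT5G65730), also of group I, had 26.0 and 37.7 RPKM at 0.5 h, against 18.3 and 17.1 RPKM at 0 h, a log2 change of 0.79 ± 0.19 (limma adjusted p = 0.0415). Its groups did not overlap, but 0.5 h library 2 was clearly the higher of its group. The XTH6 call was lost without 0.5 h library 2 (adjusted p = 0.123), without 0 h library 1 (0.121) and without 0 h library 2 (0.144), while the direction was kept. Of the other 5 tested members of group I, XTH9 came nearest, with 48.8 and 52.0 RPKM at 0.5 h, against 25.5 and 39.2 RPKM at 0 h (log2 change 0.66 ± 0.21, limma adjusted p = 0.0923). XTH5, the member closest to XTH4 (72.5% identity), had 5.28 and 3.64 RPKM at 0.5 h, against 4.82 and 4.91 RPKM at 0 h, with overlapping groups. XTH5 and XTH9 were named after their values were seen. In all, 2 of 11 group I members (7 tested) rose and none fell, beside 6.71% and 5.11% of all tested genes. Summed, the group had 417 and 397 RPKM at 0.5 h, against 205 and 238 RPKM at 0 h.

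XTH15 and XTH16 are 81.7% identical in coding sequence and are known from shade-grown seedlings and petioles as growth-related XTHs. XTH15 (AT4G14130, XTR7) had 47.6 and 25.2 RPKM at 0.5 h, against 11.0 and 15.0 RPKM at 0 h, a log2 change of 1.36 ± 0.29 (limma adjusted p = 0.0311). XTH16 (AT3G23730) had 47.9 and 54.8 RPKM at 0.5 h, against 20.2 and 31.3 RPKM at 0 h, a log2 change of 1.00 ± 0.21 (limma adjusted p = 0.0311). Neither overlapped between groups, but the 0.5 h libraries lay well apart for XTH15 and the 0 h libraries for XTH16. The XTH15 call was lost without 0 h library 1 (adjusted p = 0.124) or 0 h library 2 (0.0543), and the XTH16 call without 0.5 h library 2 (0.116) or 0 h library 1 (0.0981). XTH15 overlaps locus AT4G14120 in the annotation. With the strand setting unknown, reads of the 2 cannot be told apart in the overlap, but AT4G14120 had 6 to 9 reads at 0.5 h, against 2 to 4 at 0 h.

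**Figure D2:**
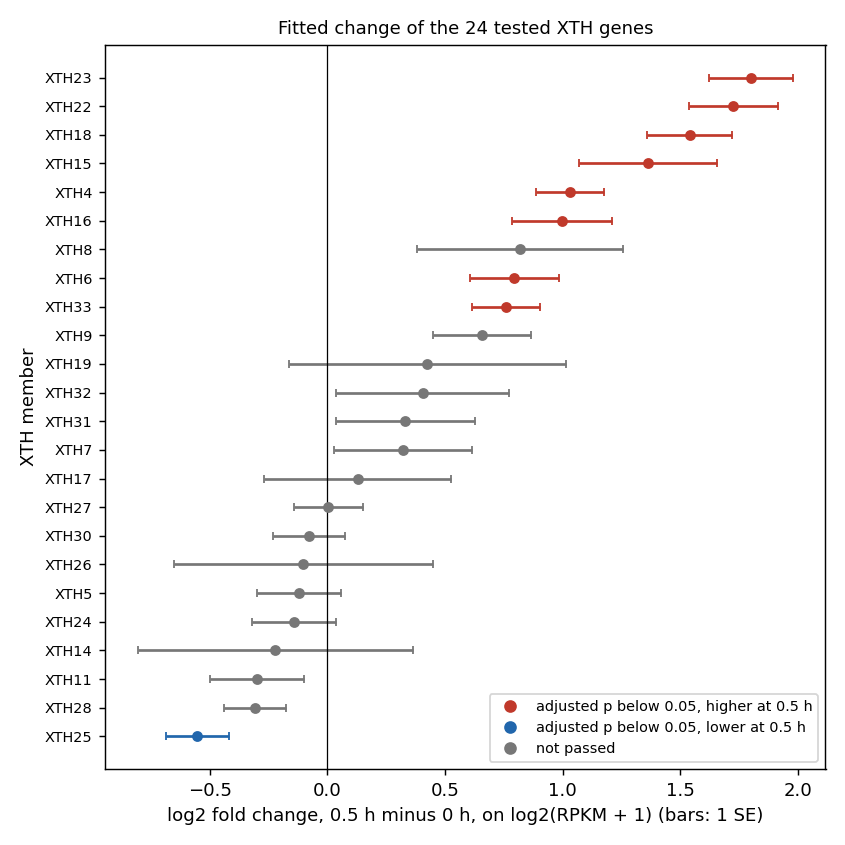
Fitted log2 change, 0.5 h minus 0 h, of the 24 tested XTH genes on the log2(RPKM + 1) scale, with bars of 1 SE. Points in red passed higher at 0.5 h and the point in blue, XTH25 at -0.55, passed lower; XTH8 at 0.82 did not pass, with an SE of 0.44.

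XTH25 (AT5G57550, XTR3) was the only called member that was lower after transfer. It had 7.07 and 8.08 RPKM at 0.5 h, against 12.1 and 11.1 RPKM at 0 h, a log2 change of -0.55 ± 0.13 (limma adjusted p = 0.0445). The groups did not overlap. The adjusted p was close to the threshold, and the call was lost without any 1 of the 4 libraries (0.0787 to 0.222) and under 4 other settings. XTH25 lies next to XTH22 on chromosome 5. XTH22 exceeded it by 7.55 and 7.60 on the log2(RPKM + 1) scale at 0.5 h, against 5.40 and 5.20 at 0 h.

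Other neighbours on a chromosome also differed. XTH24 and XTH19 flank XTH18 on chromosome 4, and XTH14 is the neighbour of XTH23. XTH24 (AT4G30270) had 1743 and 1538 RPKM at 0.5 h, against 1901 and 1717 RPKM at 0 h, with overlapping groups and a log2 change of -0.14 ± 0.18 (limma adjusted p = 0.642). XTH18 was below XTH24 in every library, with differences of -4.20 and -4.06 on the log2(RPKM + 1) scale at 0.5 h, against -5.65 and -5.97 at 0 h. XTH14 had 5.90 and 1.40 RPKM at 0.5 h, against 1.89 and 6.79 RPKM at 0 h. Its groups overlapped, unlike those of XTH23. In total 10 members lie next to another member, and the reads of XTH14, XTH22, XTH23, XTH24 and XTH25 had no multi-mapped share. Of 15 group II members 5 rose, 1 fell, 5 were tested without passing and 4 were not tested. Among all tested genes, 6.71% were called higher and 5.11% lower. Summed RPKM of the group was 3618 and 3661 at 0.5 h, against 2588 and 2300 at 0 h.

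**Figure D3:**
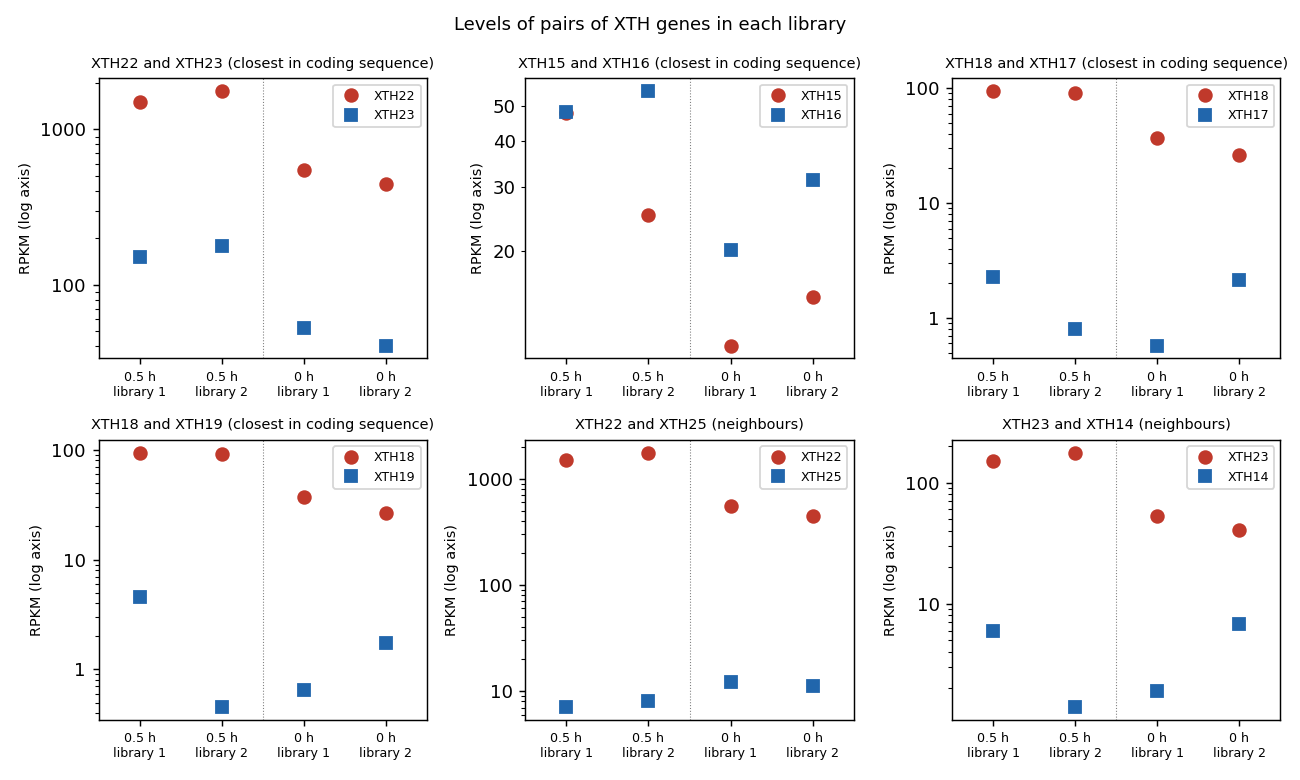
RPKM (log axis) of pairs of XTH genes in each library, the 2 at 0.5 h left of the 2 at 0 h. XTH22 and XTH23 move in parallel, XTH15 and XTH16 are both higher at 0.5 h, XTH17, XTH19 and XTH14 are high in 0.5 h library 1 and 0 h library 2, and XTH25 is lower at 0.5 h while its neighbour XTH22 is higher.

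Group III holds XTH27 to XTH33, among them members with hydrolase activity. Only XTH33 (AT1G10550) of its 7 members (6 tested) passed, and it was called higher, as were 6.71% of all tested genes. XTH33 had 28.8 and 29.1 RPKM at 0.5 h, against 18.4 and 15.1 RPKM at 0 h, a log2 change of 0.76 ± 0.14 (limma adjusted p = 0.0218). The 0.5 h libraries were nearly equal and above both 0 h libraries, and the call was lost without 0.5 h library 2 (adjusted p = 0.0758) or 0 h library 2 (0.103). XTH27 (AT2G01850, EXGT-A3), known from tracheary elements of leaf veins, had 181 and 186 RPKM at 0.5 h, against 193 and 174 RPKM at 0 h. Its log2 change was 0.00 ± 0.15 (limma adjusted p = 0.988). XTH28, closest to XTH27 (77.7% identity) and named after its values were seen, had 54.0 and 51.5 RPKM at 0.5 h, against 65.9 and 65.2 RPKM at 0 h, a log2 change of -0.31 ± 0.13 that did not pass (limma adjusted p = 0.177). XTH31, which has been described as a xyloglucan hydrolase, had 8.28 and 4.32 RPKM at 0.5 h, against 3.60 and 5.78 RPKM at 0 h, with overlapping groups. The summed level of the group was 320 and 313 RPKM at 0.5 h, against 332 and 304 RPKM at 0 h, also with overlap.

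A catalytic stretch is shared by nearly the whole family, whichever way its members moved. The coding bases of the conserved active-site pattern of this enzyme family were found once in 32 of 33 coding sequences, XTH11 being the exception. They are shown for 6 called members and for XTH24, XTH27 and XTH31, which were not called, so that the stretch can be compared across both, with 6 bases on either side, and capitals mark the 5 codons of the pattern (TAIR10.1, coding exons). Shown in turn are XTH22 at chr5:23307842-23307868 (minus strand), XTH23 at chr4:13129069-13129095 (plus), XTH24 at chr4:14820045-14820071 (minus), XTH25 at chr5:23305800-23305826 (minus), XTH18 at chr4:14826572-14826598 (minus), XTH4 at chr2:2764490-2764516 (plus), XTH27 at chr2:385888-385914 (plus), XTH31 at chr3:16447885-16447911 (minus) and XTH33 at chr1:3480309-3480335 (minus).
XTH22: tgggacGAGATAGATTTCGAGttttta
XTH23: tgggacGAGATTGACTTTGAGttcttg
XTH24: tgggatGAGATTGATTTTGAGttcttg
XTH25: tgggacGAAATCGATTTCGAGtttctt
XTH18: tgggatGAGATTGATTTCGAGttctta
XTH4: catgacGAGATAGACTTTGAGttcctt
XTH27: catgatGAGATAGATTTTGAGtttctt
XTH31: cacgatGAGGTCGATATCGAGtttcta
XTH33: cacgacGAGATAGACATAGAAttgttg
XTH25, which fell, differs from XTH22 at 4 of 27 bases, and XTH23, which rose with it, at 5. The fourth capital codon is TTT or TTC in 27 members, XTH27 and XTH28 included, and ATA or ATC in XTH29 to XTH33. XTH33, the only called member of group III, is thus among the 5 with ATA or ATC there.

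Many low members were high in the same libraries, 1 of each time. Of the 33 members, 13 had their 2 highest values in 0.5 h library 1 and 0 h library 2, which are of different groups. These were XTH5, XTH7, XTH8, XTH12, XTH13, XTH14, XTH17, XTH19, XTH20, XTH21, XTH26, XTH31 and XTH32, described after their values were seen. The share was 10 of 26 (38.5%) among members with reads in every library, and 10.9% of the 21783 such genes of the table. For members under 10 RPKM with reads in every library it was 9 of 12 (75.0%), and 17.3% of the 11544 such genes of the table. XTH26, known from root hairs, had 2.13 RPKM in 0.5 h library 1 and 0 reads in 0.5 h library 2, against 0.360 and 1.72 RPKM at 0 h. XTH12 had 1.68 and 0.205 RPKM at 0.5 h, against 0.254 and 1.81 RPKM at 0 h. XTH13, 89.7% identical to XTH12, had 0.581 RPKM in 0.5 h library 1 and 0 reads in 0.5 h library 2, against 0.0728 and 0.850 RPKM at 0 h. In each of these genes the groups overlapped, and replicates differed more than the group means did.

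Root hair markers were high in the same libraries. Of 8 root and root hair markers, 6 had their 2 highest values in those same libraries (EXPA7, EXPA18, COBL9, LRX1, RHD2 and RHD6), and of 6 photosynthetic shoot markers none. So did 10.9% of all genes with reads in every library, and 17.3% of those under 10 RPKM. EXPA7, a root hair expansin, had 1.76 and 0.0704 RPKM at 0.5 h, against 0.422 and 1.06 RPKM at 0 h. LRX1, a root hair wall protein, had 0.655 and 0.0496 RPKM at 0.5 h, against 0.0764 and 0.755 RPKM at 0 h. Summed without PYK10, the markers had 8.02 and 1.86 RPKM at 0.5 h, against 4.48 and 7.16 RPKM at 0 h, and with PYK10 173 and 168 RPKM at 0.5 h, against 162 and 280 RPKM at 0 h. Their part in the levels of the low XTH genes was not tested. No marker was at 0 reads in any library, but in 0.5 h library 2 EXPA7 had 1 read and LRX1 had 2 reads. TIP2-3, a root aquaporin, went another way, with 1.10 and 0.392 RPKM at 0.5 h, against 2.27 and 1.93 RPKM at 0 h (log2 change -0.86 ± 0.25, limma adjusted p = 0.0708). It was called lower under quantile scaling (0.0492), with robust estimation (0.0473) and without 0.5 h library 1 (0.0266). Of the shoot markers, LHCA1, a light-harvesting protein, fell (819 and 1028 RPKM at 0.5 h, against 1771 and 1597 at 0 h; log2 change -0.87 ± 0.19, limma adjusted p = 0.0320, lost without 0.5 h library 1, 0.5 h library 2 or 0 h library 1), and 5 did not pass. The share called lower over all tested genes was 5.11%. LHCB1.3, another light-harvesting protein and the shoot marker of highest mean, had 13555 and 12922 RPKM at 0.5 h, against 15739 and 15997 RPKM at 0 h (log2 change -0.26 ± 0.20, limma adjusted p = 0.441). The summed shoot markers were 24321 and 24613 RPKM at 0.5 h, against 28752 and 29217 RPKM at 0 h.

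**Figure D4:**
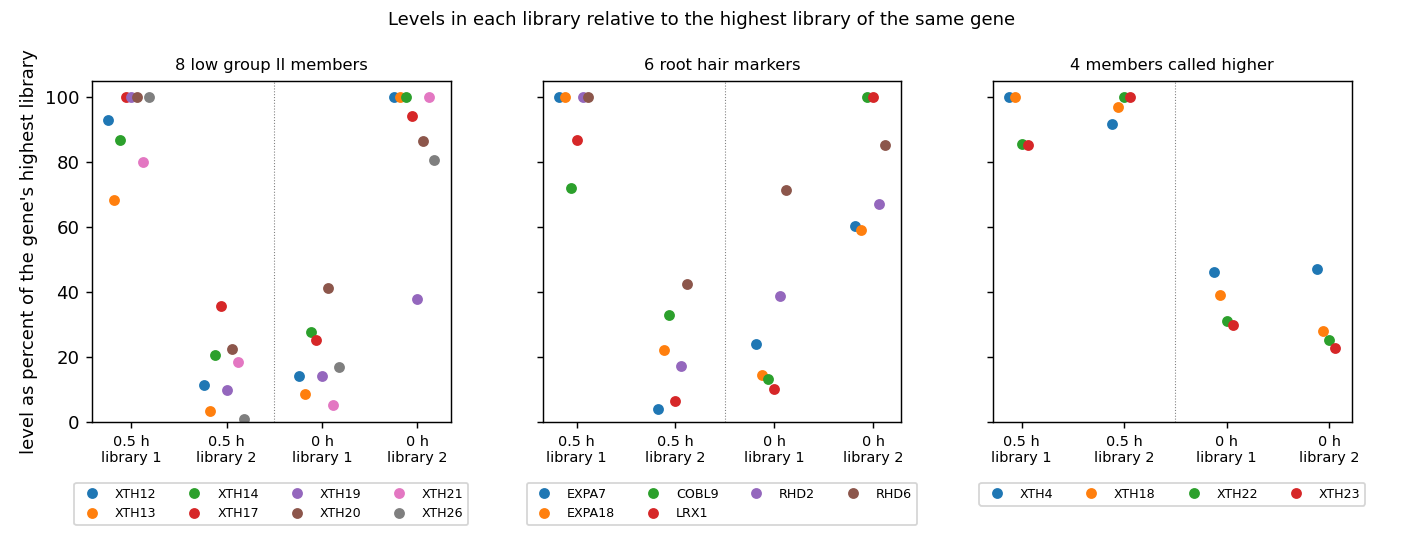
Level in each library as percent of the gene's highest library, the 2 libraries at 0.5 h left of the 2 at 0 h. The 8 low group II members and 6 root hair markers shown are high in 0.5 h library 1 and 0 h library 2. XTH25 (group II, mean 9.57 RPKM), PYK10 and TIP2-3 lack that pattern and are left out, so the likeness of those shown is by choice. The 4 members called higher (XTH4, XTH18, XTH22 and XTH23), high in both 0.5 h libraries by that choice, are shown beside them.

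Genes that build xyloglucan rose in part. Of 14 such genes 11 were tested, 3 rose (6.71% of all tested genes did) and none fell. The fitted change was above 0 for all 11, as for 8432 of the 18039 genes tested, with a median log2 change of 0.50 beside -0.03 over all tested genes. CSLC4, which makes the glucan backbone, had 23.6 and 26.2 RPKM at 0.5 h, against 9.67 and 10.4 RPKM at 0 h (log2 change 1.23 ± 0.13, limma adjusted p = 0.00515). XXT1, a xylosyltransferase that decorates the backbone, had 47.9 and 62.3 RPKM at 0.5 h, against 25.2 and 24.9 RPKM at 0 h (1.10 ± 0.16, limma adjusted p = 0.0108). XXT5, another xylosyltransferase, had 34.9 and 45.0 RPKM at 0.5 h, against 17.6 and 17.1 RPKM at 0 h (1.15 ± 0.16, limma adjusted p = 0.00902). In these 3 called genes every 0.5 h value lay above every 0 h value. Full separation of the groups was common, however. It was seen in 8 of the 11 tested genes of this list and, in either direction, in 59.7% of all tested genes.

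Of 3 enzymes that trim xyloglucan side chains, 1 rose and 1 fell, beside 6.71% and 5.11% of all tested genes. AXY8, an apoplastic α-fucosidase, had 9.17 and 10.4 RPKM at 0.5 h, against 4.81 and 6.37 RPKM at 0 h, and rose (log2 change 0.72 ± 0.16, limma adjusted p = 0.0355). BGAL10, a β-galactosidase, had 35.1 and 33.7 RPKM at 0.5 h, against 51.5 and 48.3 RPKM at 0 h, and fell (-0.52 ± 0.13, limma adjusted p = 0.0474). XYL1, an α-xylosidase, had 19.7 and 17.9 RPKM at 0.5 h, against 20.8 and 24.9 RPKM at 0 h, and did not pass. The AXY8 call was lost without 0.5 h library 2, 0 h library 1 or 0 h library 2, and the BGAL10 call without any 1 library.

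Most genes of cellulose synthesis in the primary wall did not pass. Of 9 genes 8 were tested, 2 rose and none fell, with a median log2 change of -0.02. Among all tested genes, 6.71% rose and 5.11% fell. CESA5 had 11.2 and 11.8 RPKM at 0.5 h, against 4.05 and 5.49 RPKM at 0 h (log2 change 1.13 ± 0.16, limma adjusted p = 0.00953). CESA6, a catalytic subunit for which CESA5 can substitute in part, had 41.6 and 40.0 RPKM at 0.5 h, against 22.9 and 28.6 RPKM at 0 h (0.65 ± 0.15, limma adjusted p = 0.0386, lost without any 1 library). KOR1, an endoglucanase, had 106 and 99.9 RPKM at 0.5 h, against 97.3 and 115 RPKM at 0 h. CESA3 had 64.1 and 57.5 RPKM at 0.5 h, against 56.8 and 66.2 RPKM at 0 h. Both overlapped between groups and did not pass.

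The other touch genes, named with TCH4 for the same stimulus, encode calmodulin or calmodulin-like calcium sensors. All 3 rose, as did 6.71% of all tested genes. CML12 (TCH3) had 1396 and 1936 RPKM at 0.5 h, against 363 and 297 RPKM at 0 h (log2 change 2.32 ± 0.22, limma adjusted p = 0.00470). CML24 (TCH2) had 321 and 397 RPKM at 0.5 h, against 157 and 110 RPKM at 0 h (1.43 ± 0.22, limma adjusted p = 0.0112, and 0.0537 without 0.5 h library 2). CAM2 (TCH1) had 362 and 375 RPKM at 0.5 h, against 164 and 144 RPKM at 0 h (1.26 ± 0.15, limma adjusted p = 0.00648), and 0.133 of its reads at most mapped to several places. No library here is from seedlings moved without glutamine, so touch and glutamine cannot be told apart in TCH4 or in these genes.

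**Figure D5:**
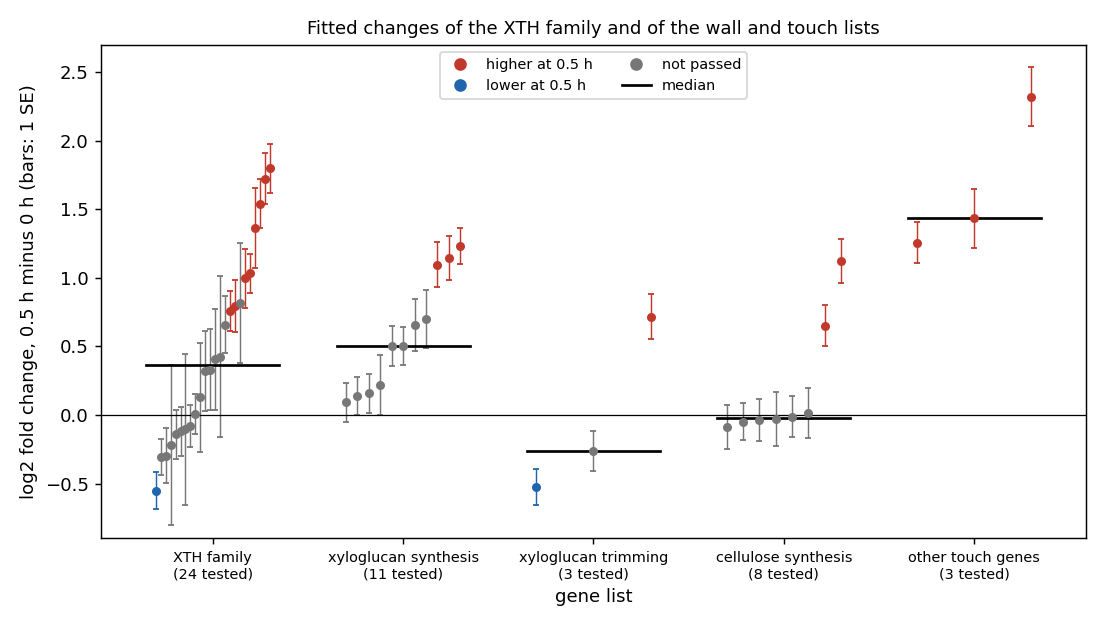
Fitted log2 change, 0.5 h minus 0 h, of tested genes of the XTH family and of 4 lists, with bars of 1 SE, colour by call and a black line at each list's median. The medians are 0.37 for the XTH family, 0.50 for xyloglucan synthesis, -0.26 for xyloglucan trimming, -0.02 for cellulose synthesis and 1.43 for the other touch genes.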

How the data were processed

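RNA of whole seedlings was sequenced at 0.5 h and 0 h (2 libraries each), grouped by the sample titles. The deposited table gives RPKM per gene, scaled by the authors with TMM as the file name says, and a deposited fraction per gene, the highest share of multi-mapped reads. Per the submitters' processing notes, TAIR10 and SAMtools (no version stated) were used. Aligner, counter and strandedness: not given in the sources used here.

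RPKM times gene length lay on whole-read steps once the added 0.5 read was removed (tolerance 0.05 read), for 99.992 to 100.0% of genes without multi-mapped reads and 47.5 to 51.7% of genes with them. Genes averaging 1 RPKM or more were tested with limma 3.58.1 (R 4.3.3) on log2(RPKM + 1), a scale that shrinks the changes of low genes, with an intensity trend, the group alone, 2 residual and 4.82 prior degrees of freedom, two-sided, Benjamini-Hochberg over all tested genes and a threshold of 0.05. The step was tested on simulated counts that had the same spread setting for every gene, with changes planted only in genes with many reads. That setting does not cover changes of low genes or genes that vary more between libraries. Other fits took 0.1 or 5 as pseudocount, dropped the minimum or raised it to 5, or used median-of-ratios or quantile scaling, no trend, robust estimation, a replicate block, each library left out, limma-voom on recovered reads, and genes with a multi-mapped share above 0.05 left out. Members, lists and tests were chosen with earlier results of these data known. Members past the threshold and the 5 of highest mean are given in full, and of each list up to 6 members past the threshold and the 2 of highest mean. Others named were chosen after their values were seen.

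Names, neighbours and sequences came from RefSeq's TAIR10.1 annotation and genome, in which 32835 of the 33602 loci were found. The table carries no coordinates. BGLC1 and BGLC3 were left out of the trimming list, because the annotation does not carry these names at the loci listed. Coding sequences were used for identity (Biopython 1.88 global alignment), in place of the proteins first planned. Scripts ran in Python 3.11.15 with numpy 2.4.6, pandas 2.3.3 and, for plots, matplotlib 3.10.9.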

Additional observations from a re-analysis of the deposited data

How the results depend on the processing

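Of the 8 XTH calls higher, those of XTH4, XTH18, XTH22 and XTH23 were lost only with no minimum on the mean RPKM and held in the other 14 alternatives, and XTH16 and XTH33 held in 12, XTH15 in 11 and XTH6 in 10 of 15. The XTH25 call held in 7. No named gene changed direction while past the threshold. Counts below for the wall lists cover xyloglucan synthesis, xyloglucan trimming and cellulose synthesis. They also include the other touch genes CML12, CML24 and CAM2. With no minimum, limma called 0 genes higher and 2 lower over all 33602 genes (2682 and 2803 at an unadjusted p under 0.05), 0 XTH members either way, and 0 genes of the wall lists either way (11 higher and 1 lower at an unadjusted p under 0.05); the cause was not tested. Leaving out 1 library gave 506 to 1158 genes called higher (1211 with all libraries) and 233 to 824 lower (922), with fewer samples in each fit. XTH members called higher then numbered 5 to 8 and lower 0 to 0, and wall list genes higher 6 to 10 and lower 0 to 0 (1 XTH member and 1 list gene lower at an unadjusted p under 0.05 each time). Without the trend, with limma-voom on recovered reads and with the replicate block, 0 XTH members were called lower (1, 2 and 1 at an unadjusted p under 0.05). Under quantile scaling, without the trend and with the replicate block, 0 wall list genes were called lower (1 each at an unadjusted p under 0.05). With the replicate block 8 XTH members were called higher, and 1127 genes higher and 834 lower in all; among named genes it ended the calls of XTH25 (adjusted p = 0.0599), BGAL10 (0.0676) and CESA6 (0.0513) and no other. Deviations of libraries with the same number correlated at -0.08 over 18039 genes, so the numbers were not taken as pairs. The log2 ratio of the summed XTH level was 0.82 under quantile scaling and 0.48 to 0.62 with 1 library left out, against 0.55. Leaving out 1 library moved the median XTH change between 0.06 and 0.75. That median was 0.00 with no minimum on the mean RPKM and 0.76 with a minimum of 5. With 2 libraries a group, no exact test over libraries can reach 0.05, and members under 1 RPKM rest on few reads.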
